A study of Mus musculus with 8 samples.

Results

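A set of 35 genes that encode the protein folding machinery of the endoplasmic reticulum (ER) was followed in mouse bone marrow-derived macrophages (BMDMs), cells taken from bone marrow and cultured into macrophages. The genes were chosen by name, for their function, from the 54532 genes of the deposited count table, and all 35 were found there. RNA sequencing covered 4 groups of 2 libraries each, which the labels number 1 and 3. Control cells received no stimulus. LPS cells received 100 ng/ml of lipopolysaccharide, a bacterial cell wall component sensed by Tlr4, for 4 h. IL-4 cells received 20 ng/ml of interleukin 4, a cytokine of type 2 immunity, for 24 h. Cells of the group called here IL-4 then LPS were exposed to IL-4 for 24 h, washed, and then exposed to LPS for 4 h, at these concentrations. The sources used here name no strain, age or genotype, and do not tell whether IL-4 cells were harvested at 24 h or only after a wash and 4 h more.

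Proteins made for secretion or for membranes enter the ER through the Sec61 channel and fold there with the help of chaperones, lectins and enzymes that form disulfide bonds. Those that fail are drawn back to the cytosol and degraded, a route called ER-associated degradation (ERAD). When unfolded proteins build up, the sensors Ern1 (IRE1), Eif2ak3 (PERK) and Atf6 start the unfolded protein response, in which Atf6 and the spliced form of Xbp1 raise the genes of the folding machinery. Macrophages rely on this machinery for the cytokines, receptors and lysosomal enzymes they make.

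Libraries held 7924932 to 9431852 counts. Levels are given as CPM, the usual read count unit, after scaling by TMM factors (trimmed mean of M-values), and values of a group follow the order replicate 1, replicate 3. The TMM factors were 1.172 to 1.252 in libraries without LPS and 0.786 to 0.866 in libraries with LPS. In every group, replicate 1 carried 2936 to 4465 reads of Xist, a transcript of female cells, and replicate 3 carried 0, while reads of Y-linked genes numbered 50 to 134 in replicate 1 and 1316 to 1573 in replicate 3. The 2 libraries of a group therefore differ in sex chromosome transcripts, and the labels do not say how many animals they come from. Nos2, an LPS-induced gene, had 5 to 13 reads without LPS and 9683 to 13711 with it. Retnla, an IL-4-induced gene, had 0 reads in libraries without IL-4 and 188 to 284 with it. All 10 macrophage markers were detected, and their summed level, carried by Lyz2, was at 18500 to 25100 CPM in control, 20800 to 23100 CPM after LPS, 12600 to 17400 CPM after IL-4 and 12800 to 18000 CPM after IL-4 then LPS. It was thus lower in every library with IL-4 than in any library without it. The T cell receptor genes Cd3d, Cd3e, Cd3g and Trac and the B and plasma cell genes Cd79a and Mzb1 had 0 reads. The summed T and NK cell list, carried by Il7r, was at 372 to 548 CPM without LPS and 166 to 222 CPM with it, and the B and plasma cell list, carried by Sdc1, at 280 to 428 and 110 to 263 CPM. Summed markers of mast cells were at 6.44 to 19.5 CPM without LPS and 56.7 to 109 CPM with it, carried by Hdc, while Mcpt8, Fcer1a and Ms4a2 had 0 reads. Summed stromal markers were at 4.55 to 6.14 CPM without LPS and 21.8 to 47.8 CPM with it. With LPS they were carried by Pdgfrb, while Col1a1, Col1a2 and Dcn did not exceed 2.98 CPM in any library. Summed dendritic cell markers were at 1.27 to 2.05 CPM without LPS and 7.18 to 13.7 CPM with it, then carried by Xcr1 and Zbtb46. Summed neutrophil markers stayed between 0.865 and 8.15 CPM, and erythroid markers did not exceed 0.276 CPM. The part of these marker differences in the results below was not tested. In bulk RNA, fewer cells of a type and less RNA per cell cannot be told apart.

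The 35 genes together held 0.679% and 0.665% of all counts in control, 0.492% and 0.445% after LPS, 0.719% and 0.745% after IL-4, and 0.547% and 0.532% after IL-4 then LPS. The share was thus lower in each LPS library than in any library without LPS. Hspa5, the member with the most reads after LPS, went against this. Without it, the share was 0.609% and 0.593% in control against 0.392% and 0.360% after LPS. These shares are of raw counts, to which no TMM factor was applied. Without TMM factors, 9236 of the 12234 tested genes were lower in LPS than in control, and the median of all was -0.62 (log2). In cells that had first met IL-4, 9198 were lower with LPS, and the median was -0.56. The lower share by itself therefore does not set the folding genes apart from other genes.

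Per kilobase of gene model, the most abundant member in control cells was Calr at 185 ± 12.3 CPM per kb (mean ± SD, n = 2). P4hb followed at 157 ± 5.27, Hspa5 at 139 ± 7.87 and Pdia3 at 136 ± 6.90 CPM per kb, and the ranges of the last pair overlapped. Canx at 76.2 ± 0.842 and Hsp90b1 at 64.9 ± 1.42 CPM per kb came next. The sensors were low, with Ern1 at 9.26 ± 0.509 and Eif2ak3 at 6.50 ± 0.254 CPM per kb. The order at the top changed with LPS. Hspa5 was the most abundant member after LPS, at 271 ± 21.6 CPM per kb, and Ssr3 moved from rank 9 to rank 5, at 105 ± 5.86 CPM per kb. After IL-4, Calr led again at 256 ± 16.0 CPM per kb. After IL-4 then LPS, Hspa5 at 266 ± 2.25 and Calr at 250 ± 16.3 CPM per kb differed by about the spread of Calr. Derl3, an ERAD channel gene, had 0 to 4 reads per library and was not tested. The other 34 members passed the low-count filter.

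The promoters of ER folding genes are known for a motif called the ER stress response element (ERSE), at which Atf6 and Xbp1 act together with NF-Y. RefSeq promoter windows (GRCm38.p6, from 250 bases before to 50 after the annotated start) were matched for 30 of the 35 members, and Hyou1, Manf, Derl1, Atf6 and Sec61a1 were not matched. ERSE, searched on both strands as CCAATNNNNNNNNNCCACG, was found in 9 of the 30 members (30%) and in 37 of the 27025 genes of the reference (0.137%). The members were chosen as ER folding genes, which are known for this motif, so these shares are no test of the set. The ERSE matches are shown because the members holding them moved in different directions after LPS. They are written along the motif, with the fixed letters in capitals.
Hspa5: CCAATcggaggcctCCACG
Hsp90b1, far match: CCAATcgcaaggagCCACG
Hsp90b1, near match: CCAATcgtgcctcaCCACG
Calr: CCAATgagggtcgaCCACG
Canx: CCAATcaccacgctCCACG
Dnajc3: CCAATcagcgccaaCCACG
Creld2: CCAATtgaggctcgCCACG
Pdia6: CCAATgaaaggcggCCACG
Syvn1: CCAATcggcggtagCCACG
Derl3: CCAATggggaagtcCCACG

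Of these 9 genes, Hspa5 and Syvn1 rose in LPS against control and Dnajc3 and Creld2 fell, beside 21.8% and 18.6% of all tested genes. Hsp90b1, Calr, Canx and Pdia6 did not pass the test, and Derl3 was not tested. These directions depend on the TMM factors. When libraries were scaled by their sizes alone, Syvn1 did not pass. Hsp90b1, Calr, Canx and Pdia6 then passed as lower, as did 47% of all tested genes. The match began 65 bases before the start in Hspa5, 44 in Syvn1, 105 in Dnajc3 and 126 in Creld2, where it lay on the minus strand of the gene. The shorter ERSE-II, ATTGGNCCACG, was found in Dnajb11 and Herpud1 (0.0444% of genes in the reference) and the Xbp1 core GACGTGG in Pdia6 and Ssr1 (2.73%). The cAMP response element TGACGTCA was found in no member window and in 2.03% of genes. A match here is a description of letters, not a measured binding site. The 250 bases before the start are printed for the 4 ERSE genes that passed the test after LPS, with the matched letters in capitals. In GRCm38.p6 they lie at chr2:34771840-34772089 for Hspa5, chr19:6046326-6046575 for Syvn1, chr14:118937682-118937931 for Dnajc3 and chr15:88819396-88819645 for Creld2, all on the plus strand.
Hspa5: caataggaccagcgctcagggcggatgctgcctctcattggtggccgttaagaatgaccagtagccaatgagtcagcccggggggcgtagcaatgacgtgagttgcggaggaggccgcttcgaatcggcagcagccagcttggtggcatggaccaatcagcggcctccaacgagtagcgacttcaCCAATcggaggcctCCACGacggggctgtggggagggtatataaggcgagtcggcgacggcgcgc
Syvn1: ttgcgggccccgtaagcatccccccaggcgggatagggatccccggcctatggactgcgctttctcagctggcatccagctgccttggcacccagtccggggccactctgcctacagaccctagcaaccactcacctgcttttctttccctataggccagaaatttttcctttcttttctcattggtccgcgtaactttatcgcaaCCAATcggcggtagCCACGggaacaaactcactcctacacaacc
Dnajc3: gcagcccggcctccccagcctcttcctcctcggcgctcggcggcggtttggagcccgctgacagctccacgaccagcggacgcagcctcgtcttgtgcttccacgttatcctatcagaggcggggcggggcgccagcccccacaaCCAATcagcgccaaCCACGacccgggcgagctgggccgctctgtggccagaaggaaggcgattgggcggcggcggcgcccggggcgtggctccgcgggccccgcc
Creld2: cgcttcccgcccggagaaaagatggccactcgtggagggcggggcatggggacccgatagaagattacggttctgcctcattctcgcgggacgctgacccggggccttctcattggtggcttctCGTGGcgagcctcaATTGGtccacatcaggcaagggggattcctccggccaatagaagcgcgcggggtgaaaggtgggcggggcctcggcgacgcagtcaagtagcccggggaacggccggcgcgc

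**Figure D1:**
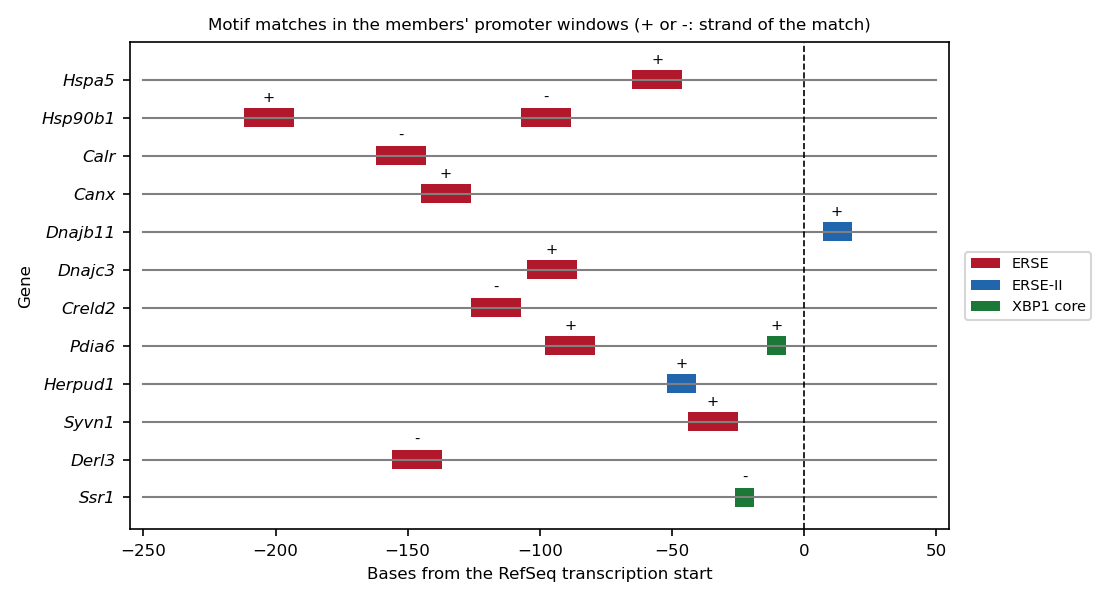
Motif matches in the promoter windows of the 12 members with a match, by distance in bases from the RefSeq start (dashed line). Red bars are ERSE, blue bars ERSE-II and green bars the Xbp1 core, and + or - is the strand of the match; 8 of the 9 ERSE genes hold 1 match and Hsp90b1 holds 2.

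LPS against control asked how resting macrophages changed the folding machinery within 4 h of LPS. The response was split. The chaperone Hspa5, the translocon subunit Ssr3, the ERAD ligase Syvn1 with its partner Sel1l, and the oxidase Ero1l were higher. The sensors Eif2ak3 and Ern1, the disulfide isomerases Pdia4 and P4hb, and several partners of Hspa5 were lower. In edgeR's quasi-likelihood test, adjusted by the Benjamini-Hochberg method over 12234 genes, 5 of the 34 tested members were higher and 10 lower, and 19 did not pass. Of all tested genes, 21.8% were higher and 18.6% lower. The median log2 fold change of the members was -0.13, against -0.01 for all genes. These directions depend on the scaling. When libraries were scaled by their sizes alone, the median of all genes after LPS was -0.62 and that of the members -0.73, and 2 members (Hspa5 and Ssr3) were higher and 28 lower, beside 12.6% and 47% of all genes. With upper-quartile factors, 3 members were higher and 18 lower, beside 16.7% and 29% of all genes and a median of all genes of -0.28.

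Among the lumenal chaperones and lectins, 1 of 6 rose and 1 fell. Hspa5 (BiP), the Hsp70 chaperone of the ER lumen that also binds the stress sensors (ENSMUSG00000026864, chromosome 2, 34771970 to 34777547, mm10), was at 562 and 609 CPM in control and 1212 and 1082 CPM after LPS. The groups did not overlap, and the log2 fold change was 0.97 ± 0.15 (SE; edgeR adjusted p = 0.00177). Under library sizes alone it was 0.37 (edgeR adjusted p = 0.0446). Hyou1, an Hsp70-like exchange factor for Hspa5 (ENSMUSG00000032115, chromosome 9, 44379490 to 44392369), went from 104 and 114 CPM to 71.4 and 73.7 CPM, with a log2 fold change of -0.59 ± 0.15 (edgeR adjusted p = 0.0177). Its call was lost without control replicate 3 or without either LPS library. Hsp90b1, the ER form of Hsp90, the lectins Calr and Canx, and Uggt1, which re-tags misfolded glycoproteins, had log2 fold changes from -0.29 to -0.06 and did not pass. Canx was at 355 and 360 CPM in control and at 346 and 342 CPM after LPS, the most even of these 4.

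Of the 7 partners of Hspa5 and small lumenal factors, 4 fell and none rose, and their median log2 fold change was -0.58. Dnajc3 (p58IPK), a J-domain co-chaperone (ENSMUSG00000022136, chromosome 14, 118937976 to 118981697), was at 109 and 111 CPM in control and 73.4 and 69.2 CPM after LPS. Its groups stood apart, with a log2 fold change of -0.63 ± 0.12 (edgeR adjusted p = 0.00528). Dnajb9 (ERdj4; ENSMUSG00000014905, chromosome 12, 44205559 to 44210326), another J-domain protein, went from 48.0 and 44.5 CPM to 26.9 and 28.9 CPM (log2 fold change -0.73 ± 0.20, edgeR adjusted p = 0.0223). Sdf2l1, which works with the co-chaperone Dnajb11 (ENSMUSG00000022769, chromosome 16, 17130138 to 17132383), was at 35.2 and 45.5 CPM in control and at 24.5 and 25.3 CPM after LPS (log2 fold change -0.70 ± 0.20, edgeR adjusted p = 0.0253). Creld2, an ER stress-inducible lumenal protein (ENSMUSG00000023272, chromosome 15, 88819646 to 88826683), was at 21.4 and 21.6 CPM in control and 14.6 and 14.1 CPM after LPS (log2 fold change -0.58 ± 0.15, edgeR adjusted p = 0.0165). Dnajb11, the J-domain reductase Dnajc10, and Manf, a stress-inducible lumenal protein, did not pass, with log2 fold changes from -0.05 to 0.03. The Manf gene model overlaps Rbm15b on the same strand and Dcaf1 on the other, so its reads are uncertain. Without either LPS library, the calls of Dnajb9, Sdf2l1 and Creld2 were lost. Those of Dnajb9 and Sdf2l1 were also lost without control replicate 3, and that of Dnajb9 without control replicate 1.

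The 5 disulfide enzymes did not move together. Pdia4 (ERp72; ENSMUSG00000025823, chromosome 6, 47796141 to 47813430) was at 48.4 and 48.7 CPM in control and 26.3 and 24.6 CPM after LPS, a log2 fold change of -0.93 ± 0.14 (edgeR adjusted p = 0.00125). P4hb, the founding protein disulfide isomerase (ENSMUSG00000025130, chromosome 11, 120560298 to 120573253), was at 438 and 459 CPM in control and 332 and 305 CPM after LPS (log2 fold change -0.49 ± 0.13, edgeR adjusted p = 0.0207). Neither gene's control values overlapped those after LPS. Ero1l, the oxidase that recharges these isomerases (ENSMUSG00000021831, chromosome 14, 45283087 to 45318771), was at 55.3 and 40.9 CPM in control and 82.3 and 77.7 CPM after LPS (log2 fold change 0.73 ± 0.18, edgeR adjusted p = 0.0124). Ero1l did not pass with library sizes alone (0.13, edgeR adjusted p = 0.604), nor did it without control replicate 3 (0.49, edgeR adjusted p = 0.0815). The call of P4hb was lost without control replicate 3 or either LPS library. Pdia3, the isomerase that works with Calr and Canx, and Pdia6 had log2 fold changes of -0.15 and -0.03 and did not pass.

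In ERAD, 2 of 8 tested genes rose and 1 fell. Syvn1 (Hrd1), the membrane ubiquitin ligase of the pathway (ENSMUSG00000024807, chromosome 19, 6046576 to 6053712), was at 60.2 and 58.3 CPM in control and 107 and 97.8 CPM after LPS, with no overlap. Its log2 fold change was 0.79 ± 0.13 (edgeR adjusted p = 0.00205), and 0.19 (edgeR adjusted p = 0.230) with library sizes alone. Syvn1 overlaps the antisense gene Mrpl49, and since no source used here states whether counting used strand, their reads cannot be told apart. Sel1l, the adaptor that holds Syvn1 in its complex (ENSMUSG00000020964, chromosome 12, 91806043 to 91849157), was at 189 and 194 CPM in control and 248 and 275 CPM after LPS (log2 fold change 0.45 ± 0.14, edgeR adjusted p = 0.0339). Its call was lost whichever of the 8 libraries was left out, and its direction turned to -0.16 with library sizes alone. Edem2, which trims mannose from misfolded glycoproteins (ENSMUSG00000038312, chromosome 2, 155701677 to 155729475), was at 110.3 and 112 CPM in control and 91.3 and 78.5 CPM after LPS (log2 fold change -0.39 ± 0.12, edgeR adjusted p = 0.0363). Its call was lost in DESeq2 (adjusted p = 0.0657), without either control library, without LPS replicate 3 and without either library of IL-4 then LPS. Herpud1, a scaffold of the ligase complex, was at 26.5 and 29.1 CPM in control and 30.8 and 54.99 CPM after LPS. After LPS its replicate 3 stood well above replicate 1, and the change did not pass (0.63 ± 0.41, edgeR adjusted p = 0.253). Edem1, the channel proteins Derl1 and Derl2, and Selenos, which recruits the extracting ATPase, had log2 fold changes from -0.13 to 0.02. Derl2 overlaps the antisense gene Mis12, which holds reads of its own.

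All 4 sensor genes, Xbp1 included, had negative log2 fold changes, and 2 passed. Eif2ak3 (PERK), the kinase that slows translation under ER stress (ENSMUSG00000031668, chromosome 6, 70844515 to 70905245), was at 40.2 and 38.1 CPM in control and 6.58 and 9.81 CPM after LPS. It was 4.77-fold lower, a log2 fold change of -2.25 ± 0.22 (edgeR adjusted p = 0.000165), the largest change of the 34 members. Ern1 (IRE1), the sensor that splices Xbp1 (ENSMUSG00000020715, chromosome 11, 106394650 to 106487852), was at 78.6 and 72.7 CPM in control and 54.6 and 43.4 CPM after LPS (log2 fold change -0.63 ± 0.16, edgeR adjusted p = 0.0166). Its call was lost without control replicate 1 or LPS replicate 3. Xbp1 (ENSMUSG00000020484, chromosome 11, 5520659 to 5525893) was at 176 and 181 CPM in control and 172 and 153 CPM after LPS, and did not pass (-0.13 ± 0.13, edgeR adjusted p = 0.436). Counts per gene do not separate its spliced from its unspliced form. Atf6 (ENSMUSG00000026663, chromosome 1, 170704674 to 170867771) was at 109 and 121 CPM in control and 107 and 94.0 CPM after LPS, and did not pass (-0.19 ± 0.14, edgeR adjusted p = 0.316). Both passed as lower with library sizes alone, Xbp1 at -0.73 (edgeR adjusted p = 0.00206) and Atf6 at -0.79 (edgeR adjusted p = 0.00238).

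In the translocon, Ssr3, a subunit of the complex that assists the Sec61 channel (ENSMUSG00000027828, chromosome 3, 65379655 to 65392623), was at 221 and 223 CPM in control and 457 and 422 CPM after LPS. The groups were far apart beside their spread, with a log2 fold change of 0.98 ± 0.13 (edgeR adjusted p = 0.000603), and 0.38 (edgeR adjusted p = 0.0285) with library sizes alone. Ssr1, another subunit of the same complex, was at 163 and 162 CPM in control and 147 and 137 CPM after LPS and did not pass. Sec61a1, the channel itself, and Sec61b, a small subunit of it, had log2 fold changes of 0.06 and -0.05.

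**Figure D2:**
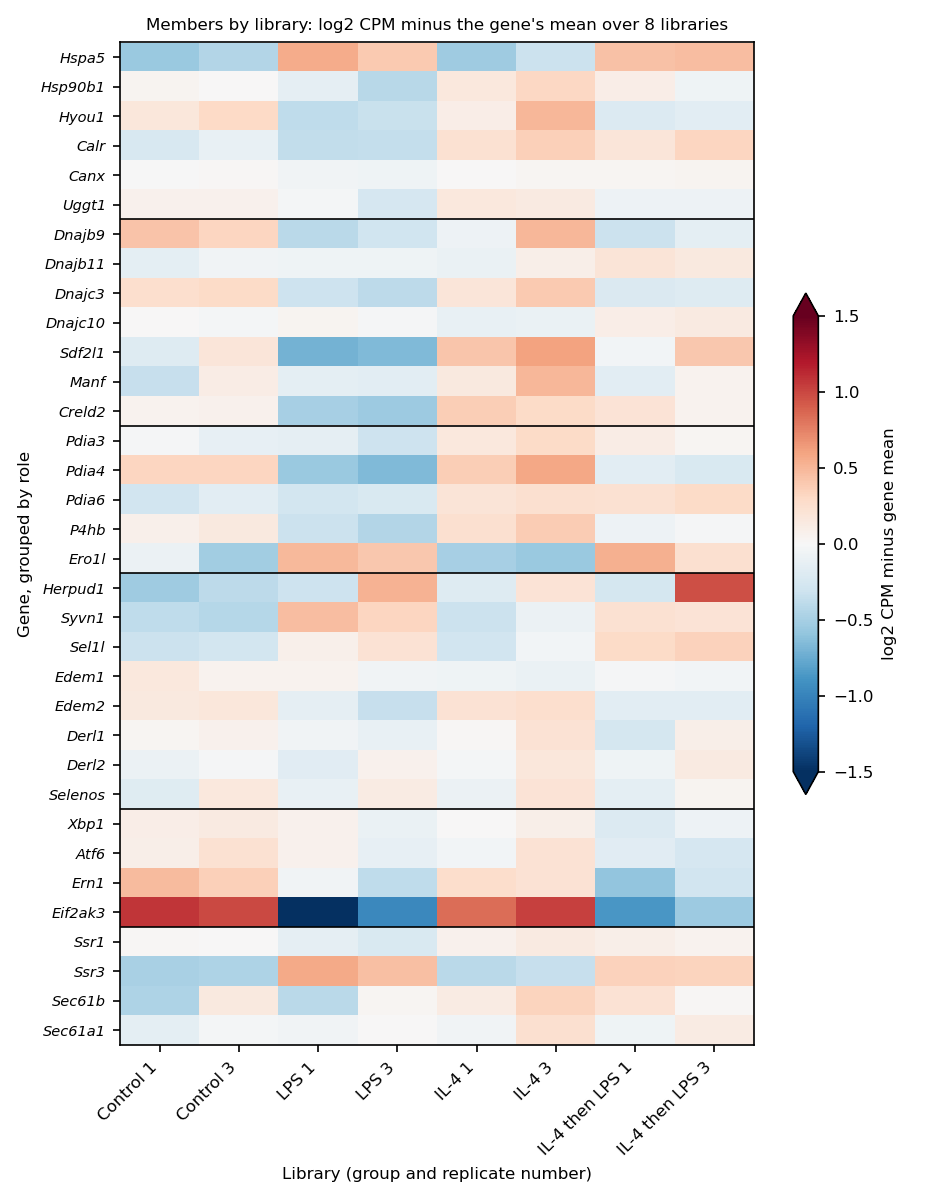
Heat map of the 34 tested members (rows, grouped by role) in the 8 libraries (columns); colour is log2 CPM minus the gene's mean over the libraries, with the scale ending at -1.5 and 1.5. Eif2ak3 is the darkest row, high in the 4 libraries without LPS and low in the 4 with it, while Canx is near the middle of the scale in all 8.

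The calls of 6 members in LPS against control held without any 1 library, namely Hspa5, Ssr3, Syvn1, Eif2ak3, Pdia4 and Dnajc3. The number of members called was 7 without LPS replicate 3, 8 without control replicate 3, 9 without LPS replicate 1 and 11 to 14 in the other 5 cases. Within replicate number 1 alone, the log2 ratio was 1.11 for Hspa5, 1.05 for Ssr3 and -2.61 for Eif2ak3, and within number 3 alone it was 0.83, 0.92 and -1.96. All 15 called members had the same sign in both numbers, as did 28 of all 34 tested members. The calls were made on these same libraries, so this is no separate check of them.

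IL-4 then LPS against IL-4 asked for the same response in cells that had first met IL-4, and these libraries are separate from those above. The same 5 members were higher and 6 of the 10 lower members were lower again. Of the 34 members, 5 were higher and 6 lower, beside 20.7% and 18.6% of all tested genes, and the median of the members was -0.14 against -0.04 for all genes. With library sizes alone 0 members were higher and 27 lower, beside 12.6% and 43.5% of all genes and a median of all genes of -0.56. With upper-quartile factors 3 were higher and 17 lower, beside 15.7% and 28% of all genes.

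Hspa5 was at 568 and 662 CPM after IL-4 and 1118 and 1132 CPM after IL-4 then LPS (log2 fold change 0.87 ± 0.15, edgeR adjusted p = 0.00306). Ssr3 was at 232 and 243 CPM after IL-4 and 392 and 390 CPM after IL-4 then LPS (0.72 ± 0.13, edgeR adjusted p = 0.00302). Ero1l was at 41.7 and 40.1 CPM after IL-4 and 85.2 and 69.2 CPM after IL-4 then LPS (0.92 ± 0.18, edgeR adjusted p = 0.00488). None of these 3 overlapped between the groups, although with library sizes alone none passed, with Hspa5 at 0.35 (edgeR adjusted p = 0.0543). Sel1l was at 194 and 229 CPM after IL-4 and 288 and 299 CPM after IL-4 then LPS (0.47 ± 0.14, edgeR adjusted p = 0.0283). Syvn1 was at 62.4 and 73.3 CPM after IL-4 and 91.3 and 90.4 CPM after IL-4 then LPS (0.42 ± 0.13, edgeR adjusted p = 0.0327). Scaling by library size alone turned Sel1l to -0.05 and Syvn1 to -0.10. The calls of both were lost without IL-4 replicate 1 or without either library of IL-4 then LPS.

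Eif2ak3 was at 34.3 and 39.1 CPM after IL-4 and 10.5 and 13.1 CPM after IL-4 then LPS, a log2 fold change of -1.63 ± 0.22 (edgeR adjusted p = 0.000749). Pdia4 was at 49.99 and 58.1 CPM after IL-4 and 34.9 and 33.1 CPM after IL-4 then LPS (-0.67 ± 0.14, edgeR adjusted p = 0.00596). Ern1 was at 68.2 and 65.6 CPM after IL-4 and 37.5 and 46.3 CPM after IL-4 then LPS (-0.67 ± 0.16, edgeR adjusted p = 0.0129). These 3 genes were lower in both LPS libraries than in both IL-4 libraries. Dnajc3 was at 103 and 120 CPM after IL-4 and 78.6 and 79.8 CPM after IL-4 then LPS (-0.49 ± 0.12, edgeR adjusted p = 0.0158). Hyou1 was at 99.4 and 131 CPM after IL-4 and 80.7 and 82.8 CPM after IL-4 then LPS (-0.50 ± 0.15, edgeR adjusted p = 0.0351). Edem2 was at 116 and 119 CPM after IL-4 and 89.8 CPM in both libraries of IL-4 then LPS (-0.39 ± 0.12, edgeR adjusted p = 0.0364). DESeq2 did not call Hyou1 (adjusted p = 0.0591) or Edem2 (adjusted p = 0.0831) here. IL-4 replicate 3 held the higher value of the IL-4 pair for Hyou1, Dnajc3 and Pdia4, and without it the calls of these 3 were lost. Those of Dnajc3, Hyou1 and Edem2 were lost without either library of IL-4 then LPS, and that of Ern1 without replicate 1 of it or without either IL-4 library. Edem2 also lost its call without either IL-4 library, and Hyou1 and Edem2 without either control library, which enters this comparison through the shared spread. Xbp1 was at 165 and 175 CPM after IL-4 and 142 and 156 CPM after IL-4 then LPS and did not pass (-0.19 ± 0.13, edgeR adjusted p = 0.287), nor did Atf6, at 99.6 and 119 CPM and 91.3 and 86.2 CPM (-0.30 ± 0.14, edgeR adjusted p = 0.134).

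Sdf2l1, Creld2, Dnajb9 and P4hb passed as lower in LPS against control and did not pass after IL-4, where their log2 fold changes were -0.31, -0.19, -0.48 and -0.36. Dnajb9 was at 33.8 and 50.5 CPM after IL-4 and 28.4 and 32.2 CPM after IL-4 then LPS (edgeR adjusted p = 0.098). P4hb was at 491 and 539 CPM after IL-4 and 391 and 409 CPM after IL-4 then LPS (edgeR adjusted p = 0.0631), and Creld2 at 26.6 and 25.02 CPM and then 23.8 and 21.4 CPM (edgeR adjusted p = 0.329). The values of these 3 genes did not overlap between the groups, with the IL-4 pair of Dnajb9 the farthest apart for its level. The share of all genes without overlap is not given, so this adds nothing to the p-values. The loss of these calls does not show a difference between the arms, which was tested on its own below. The call counts ranged from 5 without IL-4 then LPS replicate 1 to 11 without either LPS library. There were 6 calls without IL-4 then LPS replicate 3, 6 without IL-4 replicate 3, and 7 when the 2 groups were fitted alone. The calls of Hspa5, Ssr3, Ero1l and Eif2ak3 held without any 1 library. All 11 called members had the same sign within replicate number 1 alone and within number 3 alone, as did 31 of all 34 tested members. This is no separate check of the calls, which come from the same libraries. Across the 34 members, the LPS log2 fold changes of the 2 arms, which share no library but share gene lengths and the scaling method, had Pearson's r = 0.954 and Spearman's rho = 0.89, beside r = 0.927 over all 12234 genes.

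**Figure D3:**
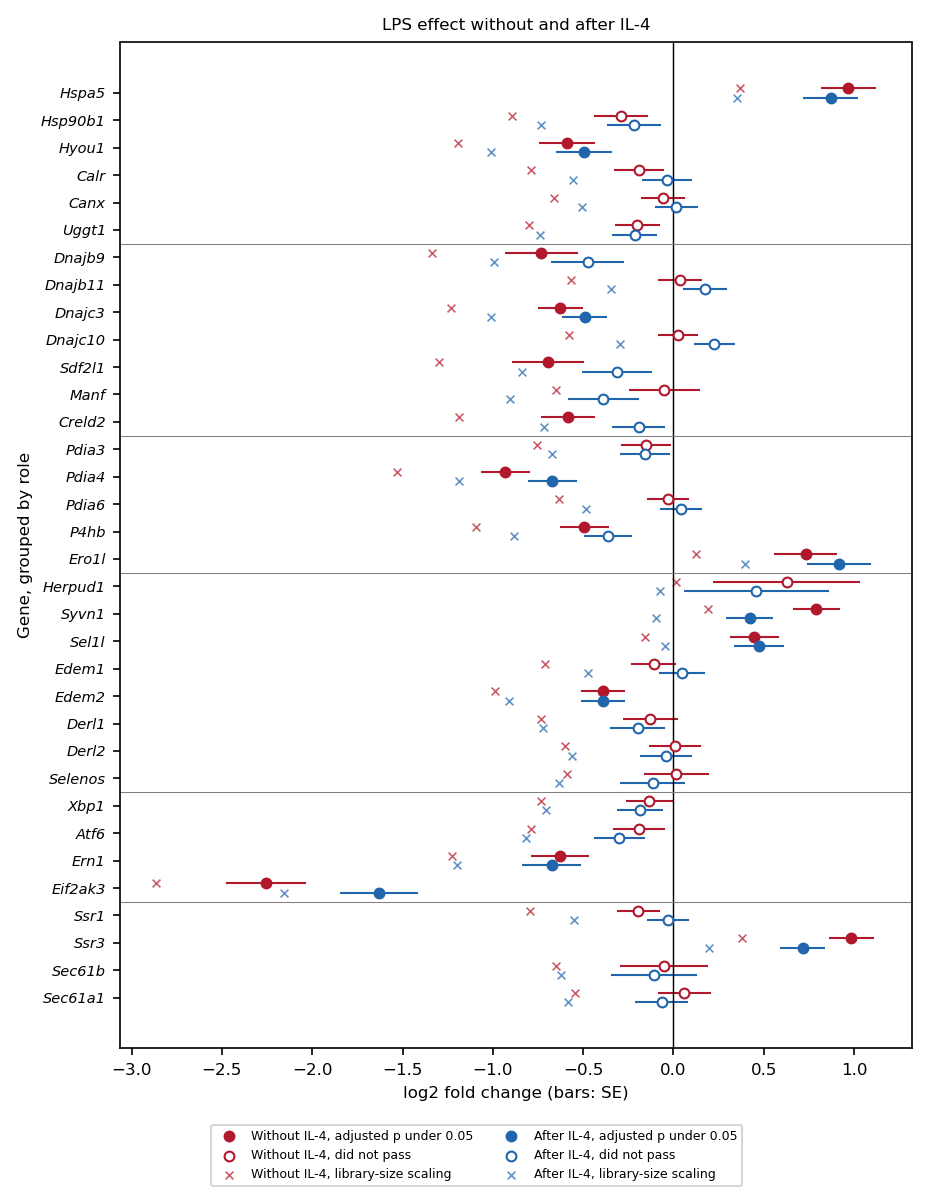
LPS effect on the 34 tested members without IL-4 (red) and after IL-4 (blue), as log2 fold change with SE bars; filled points have an adjusted p under 0.05, open points did not pass, and crosses are the same effect with library sizes alone. The crosses lie about 0.5 to 0.6 to the left of the points. With library sizes alone, the members above 0 go from 11 to 5 without IL-4 and from 11 to 3 after it. Among called members, Sel1l falls below 0 in both arms and Syvn1 after IL-4.

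The interaction asked whether prior IL-4 altered the LPS response of any member. In edgeR's test, 0 of 34 members and 0 of 12234 genes (0%) passed. At an unadjusted p under 0.05 there were 0 members, beside 2.63% of all genes, and DESeq2 called 0 members, beside 0.0409% of genes. Estimates ran from -0.37 ± 0.18 (SE) for Syvn1 to 0.62 ± 0.31 for Eif2ak3. The SE of Eif2ak3 shows that a change of the LPS effect by 0.6 on the log2 scale was not detectable for it with 2 libraries per group. Creld2 had 0.39 ± 0.21 and Sdf2l1 0.39 ± 0.28, both from a smaller LPS decrease after IL-4, and neither passed. For Hspa5 the estimate was -0.10 ± 0.21.

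**Figure D4:**
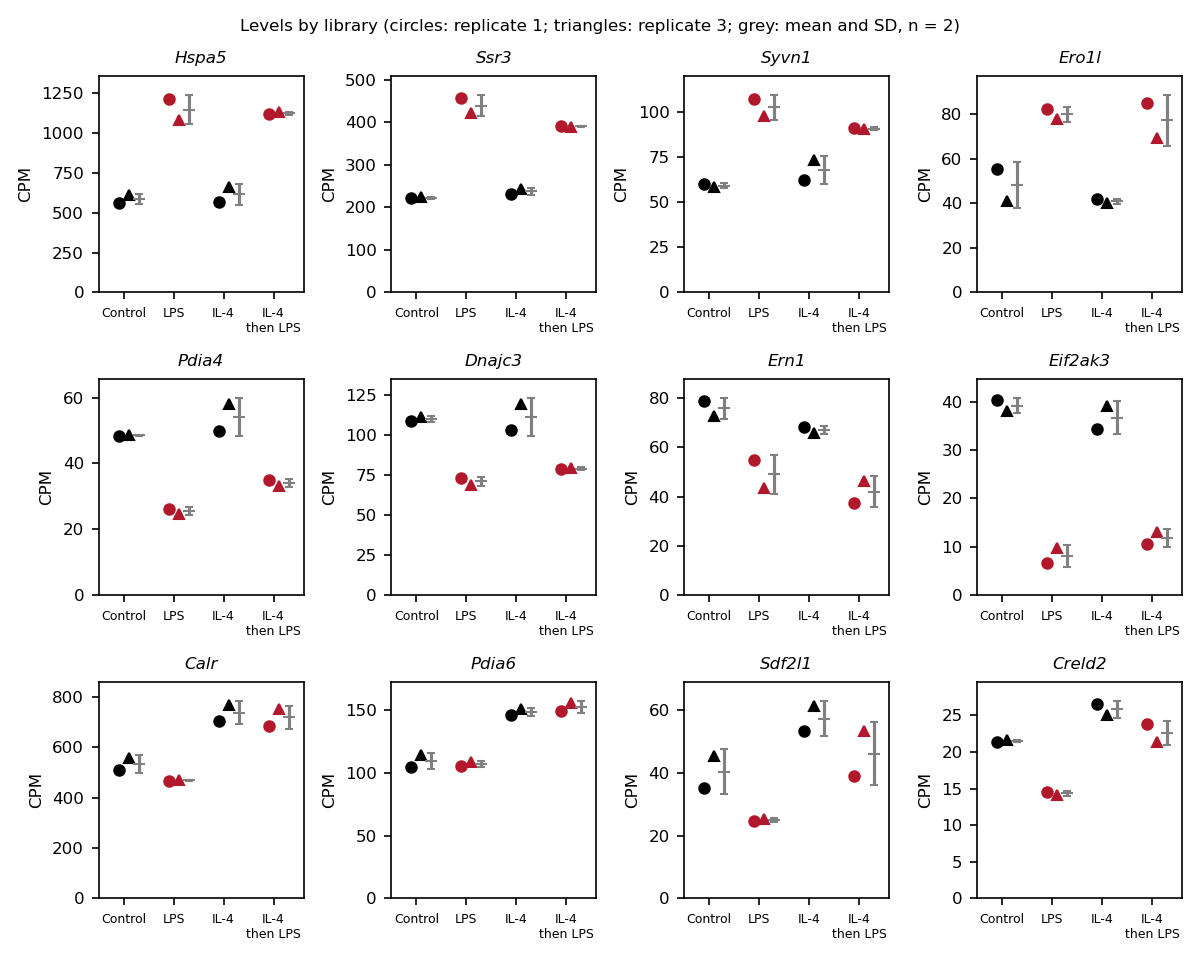
CPM of 12 members in each library, by group, on axes that start at 0; circles are replicate 1, triangles replicate 3, red symbols received LPS, and grey marks are the mean and SD of 2 libraries. Hspa5, Ssr3, Syvn1 and Ero1l are higher in all 4 LPS libraries, Eif2ak3 is lower in all 4, and Calr and Pdia6 are higher in all 4 libraries that received IL-4.

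IL-4 against control asked what IL-4 alone did to the machinery. The changes were small and none of the 34 members passed edgeR's adjusted test, beside 8 of 12234 genes (0.0654%). At an unadjusted p under 0.05 there were 3 members, beside 7.29% of all genes, and all 3 were higher. DESeq2 called 0 members, beside 0.917% of the genes it gave an adjusted p. With the replicate number as a block, Calr (edgeR adjusted p = 0.0478) and Pdia6 (edgeR adjusted p = 0.0482) passed as higher, beside 2.35% of all genes. Calr, the lectin chaperone of the lumen (ENSMUSG00000003814, chromosome 8, 84841850 to 84846934), was at 508 and 558 CPM in control and 704 and 769 CPM after IL-4 (log2 fold change 0.47 ± 0.14, edgeR adjusted p = 0.480). Pdia6, a disulfide isomerase that works with Hspa5 (ENSMUSG00000020571, chromosome 12, 17266545 to 17284770), was at 105 and 114 CPM in control and 146 and 150.4 CPM after IL-4 (0.44 ± 0.12, edgeR adjusted p = 0.377). Sdf2l1 was at 35.2 and 45.5 CPM in control and 53.4 and 61.2 CPM after IL-4 (0.51 ± 0.19, edgeR adjusted p = 0.605). The values of these 3 genes did not overlap between the groups, but the same libraries picked them, so this adds nothing to the p-values. The median log2 fold change of the 34 members was 0.09, beside 0 for all genes, and 26 members had a positive value and 8 a negative one. All 6 lumenal chaperones and lectins and all 4 translocon genes had positive values, from 0.02 to 0.47 and from 0.09 to 0.35, and all 4 sensor genes negative ones, from -0.18 to -0.07. Hspa5 was at 0.07 ± 0.15.

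IL-4 then LPS against LPS asked whether cells with prior IL-4 differed once LPS was present. In edgeR's adjusted test 0 members passed, beside 0.0654% of genes. At an unadjusted p under 0.05 there were 6 members, beside 8.5% of all genes, and all 6 were higher after IL-4. DESeq2 called 1 member, Calr (adjusted p = 0.0223), beside 0.973% of genes. With the replicate number as a block, Calr (edgeR adjusted p = 0.0163), Sdf2l1 (edgeR adjusted p = 0.0144) and Pdia6 (edgeR adjusted p = 0.0304) passed as higher, beside 2.3% of genes. Calr was at 465 and 471 CPM after LPS and 685 and 752 CPM after IL-4 then LPS (log2 fold change 0.62 ± 0.14, edgeR adjusted p = 0.268). Sdf2l1 was at 24.5 and 25.3 CPM after LPS and 39.1 and 53.2 CPM after IL-4 then LPS (0.89 ± 0.20, edgeR adjusted p = 0.262). It passed when no low-count filter was used (0.90, edgeR adjusted p = 0.00194), where 1.88% of genes passed. Pdia6 was at 105 and 109 CPM after LPS and 149 and 156 CPM after IL-4 then LPS (0.51 ± 0.12, edgeR adjusted p = 0.277). Creld2 was at 14.6 and 14.1 CPM after LPS and 23.8 and 21.4 CPM after IL-4 then LPS (0.66 ± 0.15, edgeR adjusted p = 0.277). Pdia4 was at 26.3 and 24.6 CPM after LPS and 34.9 and 33.1 CPM after IL-4 then LPS (0.42 ± 0.14, edgeR adjusted p = 0.458), and P4hb at 332 and 305 CPM and 391 and 409 CPM (0.33 ± 0.13, edgeR adjusted p = 0.556). None of the 6 overlapped between the groups, but the same libraries picked them, so this adds nothing to the p-values. These 6 include 3 of the 5 disulfide enzymes, Pdia4, Pdia6 and P4hb.

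The IL-4 effects of the 2 arms share no library. Across the 34 members they had Pearson's r = 0.627 and Spearman's rho = 0.603, beside r = 0.415 over all genes, and points share gene lengths and the scaling method. Values were positive in both arms for 22 of the 34 members, beside 30.2% of all genes. Calr, Pdia6 and Sdf2l1 were at an unadjusted p under 0.05 in both arms. Within replicate number 1 alone, the log2 ratio of Calr was 0.47 without LPS and 0.56 with it, and within number 3 alone 0.46 and 0.68. The sign was the same in both numbers for 29 of 34 members without LPS and for 23 with it. Of the 4 sensor genes, Xbp1, Atf6 and Ern1 were negative in both arms, from -0.22 to -0.07, while Eif2ak3 was at -0.10 ± 0.20 without LPS and 0.53 ± 0.23 with it (edgeR adjusted p = 0.594).

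**Figure D5:**
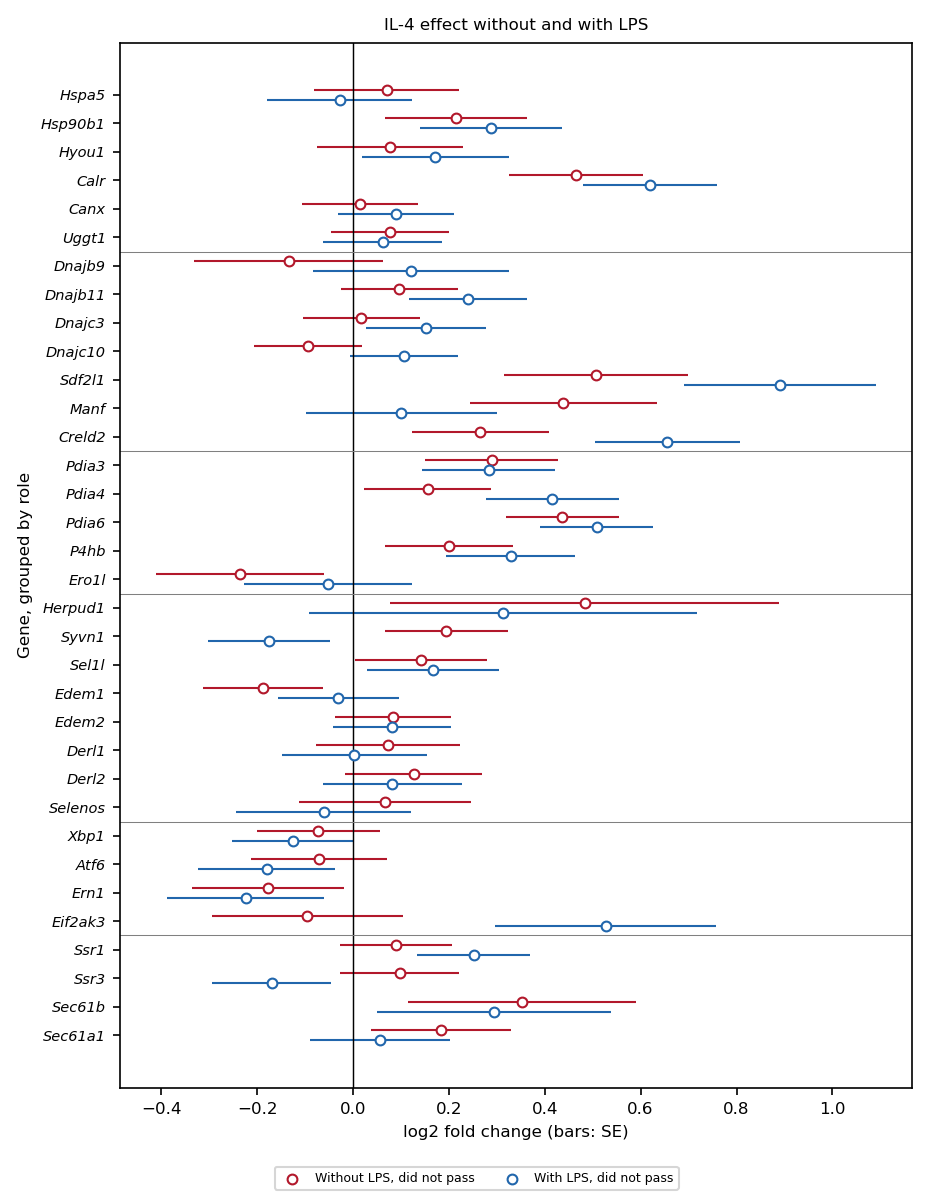
IL-4 effect on the 34 tested members without LPS (red) and with LPS (blue), as log2 fold change with SE bars. All points are open because no member passed the adjusted test in either arm. Sdf2l1, Creld2, Calr, Eif2ak3 and Pdia6 have the largest values with LPS, from 0.51 to 0.89.

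Other genes of the pathway were taken from lists by function. In LPS against control, 12 of 14 tested genes listed for the PERK and ATF4 branch were higher and 0 lower. Their median log2 fold change was 1.098, and 21.8% of all tested genes were higher and 18.6% lower. With library sizes alone, 8 of the 14 were higher and 0 lower, beside 12.6% and 47% of all tested genes. Eif2ak3 itself fell, and what raised these genes was not tested. Nupr1, a stress-induced chromatin factor, rose by 4.03 ± 0.31 (SE), Slc7a11, a cystine transporter, by 2.86 ± 0.52, and Ppp1r15b, a subunit of the phosphatase that reverses the action of Eif2ak3, by 2.44 ± 0.17 on the log2 scale. After IL-4, 8 of the 14 were higher with LPS and 0 lower (5 and 1 with library sizes alone), with Slc7a11 at 3.21 ± 0.52 and Nupr1 at 3.15 ± 0.30. Of all tested genes, 20.7% were higher and 18.6% lower there (12.6% and 43.5% with library sizes alone). Among other sensors and regulators, 4 of 13 rose and 2 fell (1 and 6 with library sizes alone). Creb3l1, an Atf6-like membrane factor, was at 2.67 ± 0.27 and its relative Creb3l2 at -1.86 ± 0.32. Nfyb, a subunit of the NF-Y factor that binds CCAAT boxes, was at 1.098 ± 0.19, and at 0.49 (edgeR adjusted p = 0.0886) with library sizes alone.

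The counts of the next lists stand beside 21.8% of all tested genes higher and 18.6% lower in LPS against control (12.6% and 47% with library sizes alone). For LPS after IL-4 these shares were 20.7% and 18.6% (12.6% and 43.5% with library sizes alone). Of 28 other ER folding enzymes and chaperones, 2 rose and 7 fell (1 and 18 with library sizes alone). The largest decreases that passed included Cnpy4 at -1.71 ± 0.31, Erp29, a lumenal redox-inactive isomerase relative, at -1.65 ± 0.24, and Cnpy3, a co-chaperone of Hsp90b1 for Toll-like receptors, at -1.25 ± 0.17. After IL-4, Erp29 was at -1.46 ± 0.24 and the J-domain gene Dnajc1 at 1.46 ± 0.20, and 3 of the 28 rose and 6 fell (2 and 14 with library sizes alone). Of 25 other ERAD genes, 4 rose and 1 fell (1 and 15 with library sizes alone). Rnf139, a membrane ubiquitin ligase, rose by 1.999 ± 0.14, and by 2.07 ± 0.14 after IL-4. Ube2j2, a conjugating enzyme, was at 0.56 ± 0.13, turning to -0.04 with library sizes alone, and Ngly1, a deglycosylating enzyme, at -0.55 ± 0.14. After IL-4, 3 of the 25 rose and 1, Tmub1 (-1.02 ± 0.29), fell, against 1 and 13 with library sizes alone. Of 22 other translocon, signal recognition and signal peptidase genes, 4 rose and 3 fell (1 and 15 with library sizes alone). Serp1, a stress-associated partner of Sec61, was at 1.02 ± 0.18, Tram2 at 0.93 ± 0.23 (0.33, edgeR adjusted p = 0.273, with library sizes alone) and Tram1 at -0.65 ± 0.18. After IL-4, 3 of these 22 rose and 2 fell (0 and 14 with library sizes alone), with Srpr, the signal recognition particle receptor, at 0.76 ± 0.16 and Tram2 at 0.73 ± 0.23. With library sizes alone neither passed there, Srpr at 0.24 (edgeR adjusted p = 0.165) and Tram2 at 0.20 (edgeR adjusted p = 0.503). Of 12 oligosaccharyltransferase genes, which attach N-glycans, 1 rose and 0 fell. It was Ost4 at 0.53 ± 0.18, which turned to -0.08 with library sizes alone, under which 9 of the 12 were lower. After IL-4, 0 of the 12 passed by TMM and 10 were lower with library sizes alone. In neither IL-4 comparison did any gene of these lists pass edgeR's adjusted test. With the replicate number as a block, 0 to 2 genes of each list passed, beside 2.35% of all genes in IL-4 against control and 2.3% with LPS. An unadjusted p under 0.05 was reached by 7.29% of all genes in IL-4 against control and by 8.5% in IL-4 then LPS against LPS. Of the 12 oligosaccharyltransferase genes, 6 reached it in IL-4 against control, with a median log2 fold change of 0.30 and 11 of 12 values positive. In IL-4 then LPS against LPS 4 of them did, with a median of 0.09. Of the PERK and ATF4 branch, 4 of 14 were reached in IL-4 against control and 0 with LPS, and of the other translocon list 1 and 4 of 22. The other lists had 0 to 2 such genes in each IL-4 comparison. DESeq2 called 1 gene of all these lists, in the other translocon list, as lower in IL-4 then LPS against LPS, where 0.973% of all genes were called.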

How the data were processed

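Transcript levels came from RNA sequencing of 8 BMDM libraries. The deposited table holds raw read counts per gene for 54532 genes, named by Ensembl identifier, made by the authors with HISAT2, StringTie and HTSeq on the mm10 mouse genome, per the submitters' processing notes, which give no versions. RNA was taken with Trizol, per the labels' protocols. Another 6 count columns match no label and were left out. Read length, strandedness and the handling of reads that match several genes are not stated, so reads of overlapping genes are uncertain.

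Genes were kept by filterByExpr of edgeR 4.0.16 (R 4.3.3), which left 12234, scaled by TMM factors, and tested with edgeR's quasi-likelihood test, 1 mean per group and 1 spread for all 8 libraries (4 residual degrees of freedom). P-values were adjusted by the Benjamini-Hochberg method over all 12234 genes, and calls were made below an adjusted p of 0.05. Standard errors were derived from the test statistic and are approximate. The p-values measure the spread between the 2 libraries of a group, which the labels do not trace to separate animals or cultures. These 2 libraries differ in Xist and Y-linked reads in every group, so the spread includes any difference that goes with sex. CPM are counts scaled by library total and TMM factor. CPM per kb divides them by the gene length given in the deposited table. The edgeR script was run on simulated counts, for LPS against control alone and with far fewer changed genes than these data hold. That run does not test the scaling of the LPS comparisons, and the other scripts were not run on simulated data.

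Alternatives were library sizes alone, upper-quartile factors, DESeq2 1.42.0 on the same genes, no low-count filter, a replicate block, the groups of a comparison alone, and leaving out each library in turn. Ratios within a replicate number were added after seeing the data. Where values are said not to overlap, this describes 2 libraries per group, and the share of all genes without overlap is not given. Values in every library are printed for each member that passed in any comparison and for Hspa5, Xbp1, Atf6, Ern1 and Eif2ak3, and for members at an unadjusted p under 0.05. Canx, Herpud1 and Ssr1 were given by library in LPS against control after their values were seen. From each of 9 lists of other genes (181 genes, 180 in the table, 170 tested), up to 3 called genes with the largest change were named in LPS against control and up to 2 in each other comparison, of which only LPS after IL-4 had any. The members and lists were chosen with earlier results of these data known. Promoter sequences are from RefSeq (GRCm38.p6), matched by symbol, or by an older symbol for Ero1l.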

Additional observations from a re-analysis of the deposited data

How the results depend on the processing

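Scaling moved the LPS comparisons, while the IL-4 comparisons had 0 calls among members under TMM, library-size and upper-quartile scaling. In LPS against control, 15 members were called by TMM, and 30 with library sizes alone (2 higher, 28 lower, beside 1547 and 5745 of 12234 genes), where Sel1l turned to -0.156. Upper-quartile factors gave 21 calls (3 higher, 18 lower, beside 2044 and 3542 genes). For LPS after IL-4, compared with IL-4 alone, 11 were called by TMM, 27 with library sizes alone (0 higher, 27 lower, beside 1546 and 5321 genes), where Syvn1 turned to -0.096 and Sel1l to -0.045, and 20 with upper-quartile factors (3 higher, 17 lower, beside 1924 and 3426 genes). Fitting only the 2 groups gave 7 calls there. Leaving out each library in turn gave 7 to 14 calls in LPS against control and 5 to 11 for LPS after IL-4. Without 1 library of a group, its other library is taken to vary like the remaining groups. In IL-4 then LPS against LPS, where 0 were called, DESeq2 called 1 (Calr) and the test without a low-count filter called 1 (Sdf2l1). The causes of these differences were not tested. The fits of 2 groups and those without 1 library hold fewer libraries than the main fit. The interaction had 0 calls under every alternative run. It was not fitted on its groups alone, since it uses all 4.

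With the replicate number as a block, 2 members were called in IL-4 against control (Calr and Pdia6, both higher, beside 183 higher and 105 lower of 12234 genes) and 3 in IL-4 then LPS against LPS (Calr, Sdf2l1 and Pdia6, all higher, beside 132 and 149 genes), 15 in LPS against control (beside 3453 and 3121), and 14 for LPS after IL-4 (beside 3182 and 3151). Deviations from group means of libraries with the same number correlated at r = 0.343 to 0.524 over the 6 pairs of groups. Xist and Y-linked reads divide the numbers alike in all 4 groups, but the labels do not say that a number marks a shared animal or batch, and a comparison has only 2 pairs. With 7924932 to 9431852 counts per library, depth kept 1 member, Derl3 with 0 to 4 reads per library, out of the test.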

Other observations

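Of 25 cytosolic chaperones and co-chaperones tested, 9 were higher and 3 lower in LPS against control, with a median log2 fold change of 0.38 (7 higher and 8 lower, median -0.22, with library sizes alone). Of all tested genes, 21.8% were higher and 18.6% lower there (12.6% and 47% with library sizes alone). For LPS after IL-4 the shares were 20.7% and 18.6% (12.6% and 43.5% with library sizes alone). Hspa1b, an inducible cytosolic Hsp70, was at 2.86 and 2.47 CPM in control and 13.9 and 17 CPM after LPS (log2 fold change 2.53 ± 0.49, SE), and its near-identical copy Hspa1a makes its counts uncertain. Dnaja2, a cytosolic J-domain protein, was at 120 and 131 CPM in control and 537 and 674 CPM after LPS (2.27 ± 0.17), and Hspa4l, an Hsp110-type exchange factor, was at 1.93 ± 0.26. After IL-4, Dnaja2 was at 2.02 ± 0.17 and Hspa4l at 1.76 ± 0.25, and 8 of the 25 were higher and 3 lower (5 and 8 with library sizes alone). Of 10 mitochondrial chaperones and proteases, 1 was higher and 1 lower in both LPS comparisons, and 0 higher and 6 lower with library sizes alone. Hscb, an iron-sulfur cluster co-chaperone, was at -1.29 ± 0.29 and, after IL-4, at -1.56 ± 0.30. Trap1, the mitochondrial Hsp90, was at 0.48 ± 0.13 and 0.39 ± 0.13, turning to -0.12 and -0.13 with library sizes alone.

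Of 21 genes of vesicle export and retrieval, which carry folded proteins out of the ER, 2 were higher and 4 lower in LPS against control (1 and 14 with library sizes alone). Of all tested genes, 21.8% were higher and 18.6% lower there (12.6% and 47% with library sizes alone). For LPS after IL-4 the shares were 20.7% and 18.6% (12.6% and 43.5% with library sizes alone). Sec24b, a cargo adaptor of the COPII coat, was at 95.5 and 88.3 CPM in control and 548 and 564 CPM after LPS (log2 fold change 2.60 ± 0.13), and its relative Sec24d was at 69.5 and 63.5 CPM in control and 43.0 and 33.9 CPM after LPS (-0.79 ± 0.16). Sec23b, which pairs with these adaptors, was at 0.90 ± 0.14, and at 0.29 (edgeR adjusted p = 0.133) with library sizes alone. After IL-4, 4 of the 21 were higher with LPS and 3 lower (1 and 11 with library sizes alone), with Sec24b at 2.39 ± 0.13 and Sec24d at -0.91 ± 0.16.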
